A study of Mus musculus with 16 samples.

Results

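Lungs of mice given bleomycin together with Ad-ATP12A, read here as an adenoviral vector with an ATP12A cargo, were compared with lungs of mice given bleomycin together with Ad-GFP. The comparison used 8 of the 16 RNA-seq libraries of the series, 4 per group, taken by the treatment in their labels. Each group had 2 libraries in batch 1 and 2 in batch 2, and a library is called here by its batch and replicate, such as b1r1. Bleomycin was given to all 8, so by the labels the groups differ in the vector alone, and GFP, a fluorescent protein, served as the control cargo. The 8 remaining libraries were 4 control lungs and 4 lungs with bleomycin and no vector, which are quoted below as reference levels. The labels name neither the promoter nor the species of the cargo, and give no dose, route, day, age, sex or strain. They do not say what the batches differ in. Nor do they say whether replicates came from separate mice, and the p-values therefore measure the spread between libraries, which may be technical.

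ATP12A is the catalytic chain of a proton-potassium pump outside the stomach. The pump moves protons out of a cell and potassium in, and its catalytic chain needs a beta subunit to reach the cell surface. In airways it is known for acidifying the surface liquid, and mouse lung is known to hold little of it. Bleomycin breaks DNA and injures the alveolar epithelium, after which inflammatory cells enter and fibroblasts lay down collagen. The series title names ATP12A as a target in idiopathic pulmonary fibrosis, and this comparison puts the question of what its added expression does to the transcriptome of a lung already exposed to bleomycin.

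Values are TPM, a level per transcript length that sums to the same total in every library. No sequencing depth can be read from them. From 15537 to 16336 genes reached 1 TPM, depending on the library. Lung markers were present in the 8 vector libraries. The surfactant gene Sftpc lay between 3965 and 29397 TPM, the alveolar type 1 gene Ager between 1026 and 1925 TPM, and the endothelial gene Cdh5 between 88.7 and 392.6 TPM. Correlations of log2(TPM + 1) between libraries of different groups, 0.911 to 0.978, spanned those within Ad-GFP, 0.924 to 0.959, and within Ad-ATP12A, 0.931 to 0.975. The groups were unbalanced in Xist, which is expressed from the inactive X chromosome of females. It lay at 167.4 TPM in Ad-GFP b1r1 and at 0.38 TPM or less in the other 3 Ad-GFP libraries, but at 74.4 to 157.0 TPM in 3 of 4 Ad-ATP12A libraries and at 0.07 TPM in b2r1. Ad-GFP b1r1 also stood apart in Scgb1a1, the club cell secretoglobin, at 295.4 TPM against 24870 to 61331 TPM in the other 7.

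Atp12a was close to absent without its vector and present in all 4 Ad-ATP12A libraries. In the order b1r1, b1r2, b2r1, b2r2, it was listed at 0, 0, 0.02 and 0.05 TPM with Ad-GFP. With Ad-ATP12A it stood at 5.13, 2.96, 29.0 and 25.7 TPM. As the species of the cargo is not given, these levels of the mouse gene may understate the vector's transcript. The groups did not overlap, and the batch 2 lungs of the Ad-ATP12A group held several times the level of the batch 1 lungs. In control lungs Atp12a reached at most 0.08 TPM and in lungs with bleomycin alone at most 0.20 TPM. The mean with Ad-ATP12A was 15.7 ± 13.6 TPM (SD, n = 4). The difference on the log2(TPM + 1) scale, which understates changes of low genes, was 3.54 (SE 0.48, 95% interval 2.43 to 4.64), or 2.30 in batch 1 and 4.77 in batch 2. An exact two-sided permutation test over the 70 relabellings gave p = 0.0286, the smallest it can give. The relabelling crossed the batches, although the level differed between them, so this p ignores the batch design. Genes were tested in limma if at least 4 of the 8 libraries reached 1 TPM. Atp12a met this through the Ad-ATP12A libraries alone, so its separation was a condition of that test. In limma the unadjusted p was 9.16e-05 and the adjusted p 0.451. With all 16 libraries in the limma fit, the same difference had an adjusted p of 0.0134, and with a pseudocount of 0.1 it was 6.50 with an adjusted p of 0.0377.

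**Figure D1:**
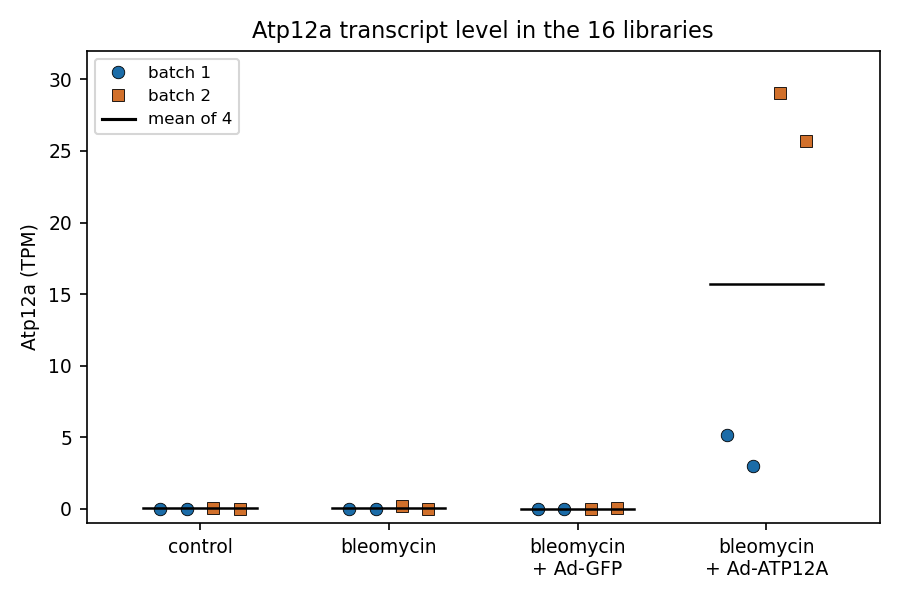
Atp12a level (TPM, vertical axis) in each of the 16 libraries by group; circles are batch 1, squares batch 2, and lines are means of 4. Only the Ad-ATP12A libraries stand off the zero line, batch 1 at 2.96 and 5.13 TPM and batch 2 at 25.7 and 29.0 TPM.

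The pump's partners and relatives were not seen to move with it. Of 18 listed genes for P-type sodium, proton and potassium pumps and their subunits, 13 could be tested. Atp12a alone had an unadjusted p under 0.05. Atp1b1, a sodium pump beta subunit known to pair with several alpha subunits, lay at 299.1, 203.8, 239.4 and 276.6 TPM with Ad-GFP. It lay at 223.1, 253.1, 241.8 and 208.9 TPM with Ad-ATP12A, a difference of -0.12 (95% interval -0.44 to 0.19). Fxyd1, phospholemman, a small regulator of the sodium pump, was at 82.0 to 85.7 TPM in 3 Ad-GFP libraries, 48.3 TPM in b2r2 and 50.3 to 66.6 TPM with Ad-ATP12A. Its difference of -0.37 (SE 0.16) had an unadjusted p of 0.0530.

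Acid-base genes showed no call either. Of 29 tested genes for bicarbonate, chloride and acid-base transport, none had an unadjusted p under 0.05, and their median difference was -0.10. The 26 tested genes of the vacuolar proton pump and the lysosome had a median of -0.03, with none under 0.05. In the transport list, Slc4a3, an anion exchanger that carries bicarbonate out of cells, was the one gene whose groups did not overlap. It lay at 7.06 to 8.46 TPM with Ad-GFP and at 5.13 to 6.84 TPM with Ad-ATP12A, a difference of -0.25 (SE 0.12).

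Across the transcriptome no gene passed. In limma with batch as a term, 0 of 16070 genes (0%) had an adjusted p under 0.05, and the smallest was 0.297. At an unadjusted p under 0.05 there were 474 genes (2.95%), 230 higher with Ad-ATP12A (1.43%) and 244 lower (1.52%). In 49 genes (0.305%) all 4 Ad-ATP12A libraries lay above all 4 Ad-GFP libraries, and in 69 (0.429%) all lay below, 118 genes together (0.734%). Under relabelling of the 8 libraries a gene separates fully with a probability of 0.0286, a share that ignores the batches. The 0.734% was below that share, and the 2.95% was below the 0.05 of the unadjusted threshold. A lack of overlap in a single gene is therefore given below as a description only. The difference was positive in 7446 genes (46.3%), and its median over all genes was -0.01, 0.02 in batch 1 and -0.06 in batch 2. Differences had the same sign in both batches for 3319 genes that were higher (20.7%) and 3662 that were lower (22.8%). Across the 16070 genes, the differences of batch 1 and batch 2 had a Pearson correlation of 0.0867 and a Spearman correlation of -0.122, as a description over genes that are not independent. The unadjusted counts moved with single libraries. Without Ad-GFP b1r2 they were 541 higher and 888 lower, without Ad-GFP b2r2 430 higher, without Ad-GFP b1r1 146 lower, and without Ad-ATP12A b2r2 139 higher and 133 lower. Below, "higher" and "lower" describe measured values, and the counts of list members are at an unadjusted p under 0.05, to be read against the shares above.

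**Figure D2:**
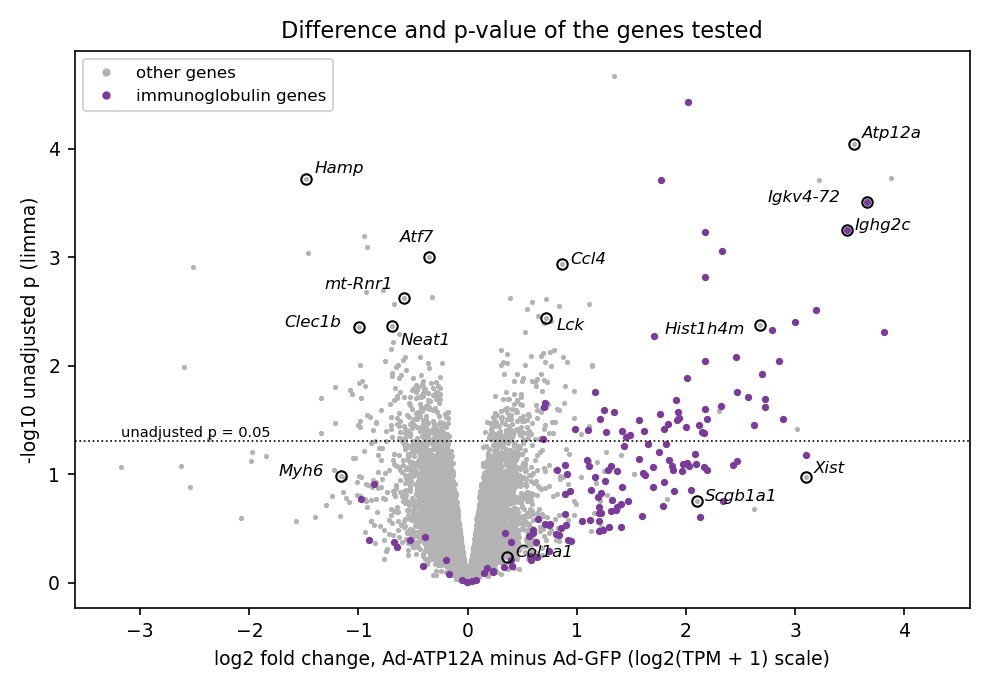
Log2 difference between Ad-ATP12A and Ad-GFP (horizontal axis) against -log10 of the unadjusted limma p (vertical axis) for the 16070 genes tested; purple points are immunoglobulin genes, rings mark genes named in the text, and the dotted line is an unadjusted p of 0.05. Immunoglobulin genes fill the right side, Atp12a stands at 3.54 and Hamp at -1.48, and no point has an adjusted p under 0.297.

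Hamp, the gene for hepcidin, a peptide hormone that blocks iron export by ferroportin, was lower with Ad-ATP12A and had the smallest p among genes with a lower level. With Ad-GFP it lay at 7.14, 4.10, 5.04 and 3.55 TPM. With Ad-ATP12A it lay at 0.65, 1.35, 1.33 and 1.08 TPM. All 4 Ad-ATP12A values were below the lowest Ad-GFP value, at a mean of 1.10 ± 0.33 against 4.96 ± 1.58 TPM (SD, n = 4). The difference was -1.48 (SE 0.22), -1.71 in batch 1 and -1.25 in batch 2, with an unadjusted limma p of 0.000190 and an adjusted p of 0.451. Control lungs lay at 5.20 to 11.8 TPM (mean 9.09) and lungs with bleomycin alone at 0.63 to 3.99 TPM (mean 2.08), with the Ad-GFP mean between the 2. The near-identical Hamp2 was listed at 0 in 7 of the 8 libraries and at 0.34 TPM in Ad-GFP b2r1. Among the 16 tested iron handling genes Hamp was alone under 0.05. Steap4, a metal reductase, differed by 0.24 and Hfe, which senses iron for hepcidin control, by 0.07, and the list median was 0.01.

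Heart muscle transcripts had their highest level in the same library as Hamp in each group given bleomycin, though not in the control group. The full order of the libraries matched that of Hamp with Ad-GFP alone. Pulmonary veins of mice carry cardiac muscle, and Hamp is known in heart. The summed level of the cardiac list was 840.1, 274.5, 588.2 and 139.8 TPM with Ad-GFP, the order of Hamp in those libraries. It was 117.0, 352.9, 116.5 and 243.8 TPM with Ad-ATP12A, and with bleomycin alone it was 135.4, 135.1, 583.3 and 301.0 TPM where Hamp was 2.25, 0.63, 3.99 and 1.43 TPM. In control lungs it was 887.2, 722.7, 460.9 and 906.8 TPM where Hamp was 5.20, 9.25, 11.8 and 10.1 TPM. All 14 tested cardiac genes were lower with Ad-ATP12A in both batches, with a median of -0.92 (-1.16 in batch 1, -0.70 in batch 2), but none had an unadjusted p under 0.05. Without Ad-GFP b2r2 there were 9 (median -1.33), with a term for the Xist-expressing libraries 8 and with array weights 11. With any other library left out there was at most 1. Myh6, the atrial myosin heavy chain, lay at 108.5, 39.8, 59.0 and 14.4 TPM with Ad-GFP and at 9.26, 44.6, 13.2 and 23.6 TPM with Ad-ATP12A. These ranges overlap, while those of Hamp do not. The part of heart muscle content in the Hamp difference was not tested. In bulk tissue, fewer cells of a type and less RNA per cell cannot be told apart.

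**Figure D3:**
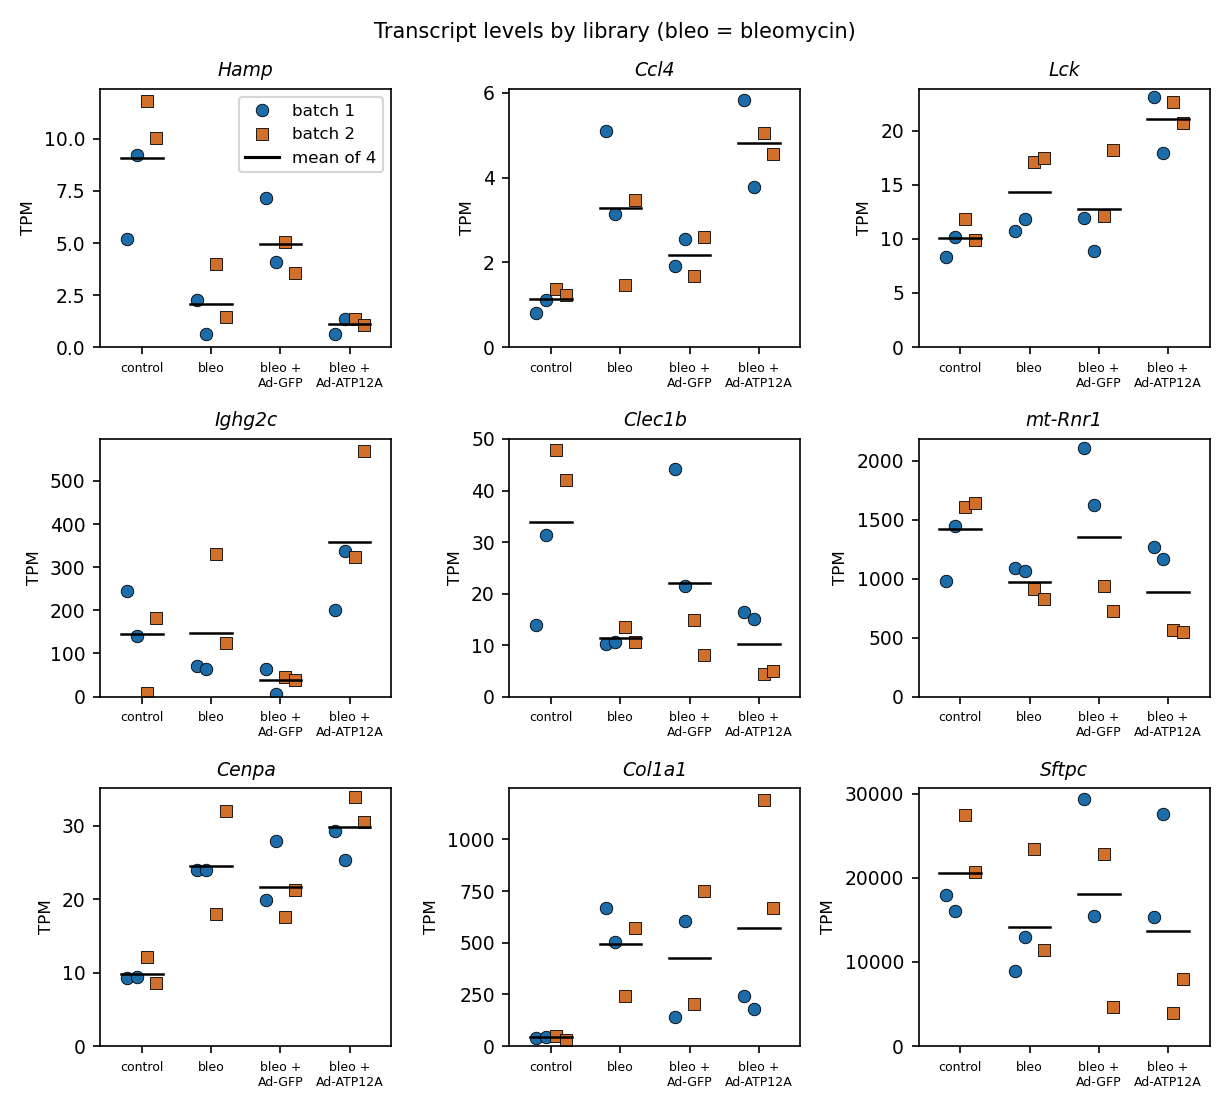
Levels (TPM, vertical axes, each from 0) of 9 genes in the 16 libraries by group; circles are batch 1, squares batch 2, lines are means of 4. Hamp and Ccl4 show no overlap between the vector groups, whereas Col1a1 and Sftpc spread as widely within a vector group as between the groups.

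Genes of T cells and cytotoxic lymphocytes were higher with Ad-ATP12A. Of 25 listed genes 23 were tested, 9 were higher at an unadjusted p under 0.05 and none lower, against 1.43% of all genes. Their median was 0.42, 0.73 in batch 1 where all 23 were higher, and 0.11 in batch 2 where 15 were. Lck, the kinase that starts T cell receptor signalling, lay at 11.9, 8.92, 12.1 and 18.2 TPM with Ad-GFP and at 23.1, 17.9, 22.6 and 20.7 TPM with Ad-ATP12A. The groups overlapped in 1 pair of libraries, and the difference was 0.72 (SE 0.17). Cd4, the helper T cell coreceptor, had 2.88 to 7.62 TPM against 6.65 to 10.2 TPM, a difference of 0.65 (SE 0.16). Cd3e, a chain of the receptor complex, differed by 0.64 and Nkg7, a cytotoxic granule protein, by 0.70.

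Of the 23 tested list members, 0 separated the groups without overlap, against 49 of all 16070 genes (0.305%) that were higher. Some T cell genes outside the list did separate them, and these were picked with their values seen. Lat, the adaptor that Zap70 phosphorylates, lay at 13.8, 11.1, 10.4 and 13.8 TPM with Ad-GFP and at 21.1, 18.6, 17.6 and 15.8 TPM with Ad-ATP12A, without overlap, a difference of 0.54 (SE 0.13). Sh2d1a, the adaptor SAP of T and NK cells, had 0.76 to 1.93 TPM against 2.62 to 3.51 TPM, also without overlap. The chemokine receptors Cxcr3 (2.02 to 5.54 against 6.21 to 7.91 TPM) and Cxcr6 (4.43 to 9.65 against 10.6 to 14.2 TPM) and the NK and T cell receptor Cd96 (0.72 to 2.58 against 2.63 to 3.74 TPM) did not overlap either. Cd5 and Cd6, both receptors that temper T cell signalling, differed by 0.84 and 0.79. Adjusted p in limma was 0.998 for each of these genes. The 30 tested T cell receptor segments had 7 higher, 1 lower and a median of 0.31.

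The T cell count depended on single libraries. Leaving out Ad-GFP b2r2, the Ad-GFP library highest in Lck, gave 14 of 23. Without Ad-GFP b1r2 or Ad-ATP12A b1r2 there were 4, and without Ad-GFP b2r1, Ad-ATP12A b1r1 or Ad-ATP12A b2r1 there were 5. A term for the Xist-expressing libraries left 3, with a median of 0.38, and batch 2 alone gave 0.

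Antibody genes differed by wide margins. Ighg2c, the constant region of the IgG2c heavy chain, lay at 64.4, 6.20, 45.2 and 37.7 TPM with Ad-GFP and at 201.6, 338.0, 324.0 and 570.4 TPM with Ad-ATP12A. The groups did not overlap, and the difference was 3.47 (SE 0.61), 3.59 in batch 1 and 3.35 in batch 2, with an adjusted limma p of 0.939. Lungs without vector spanned 9.33 to 330.5 TPM, and 2 of the 4 Ad-ATP12A libraries exceeded that range. Ighg2b did not overlap either, at 9.82 to 83.6 against 85.1 to 367.8 TPM, a difference of 2.01 (SE 0.62). Ighg1 differed by 2.32 and Ighg3 by 2.12, both with overlap.

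Of 21 tested genes of B cells and plasma cells, 5 were higher and none lower, with a median of 0.55, 1.23 in batch 1 and -0.05 in batch 2. All 5 were antibody constant regions. The 145 tested immunoglobulin variable segments had 47 higher and none lower, 5 without overlap, and a median of 1.34, 1.50 in batch 1 and 1.41 in batch 2. This group of segments was formed after values were seen. In Ad-GFP b1r2 their median level was 0.84 in log2(TPM + 1), under the 1 TPM of the filter. Segments could pass the filter through the Ad-ATP12A libraries alone, which favours higher values, and the number that did was not counted. Igkv4-72, a kappa variable segment chosen after its values were seen, lay at 17.5, 1.53, 21.2 and 14.3 TPM with Ad-GFP and at 113.9, 122.5, 115.1 and 245.4 TPM with Ad-ATP12A. Its difference was 3.66 (SE 0.59, adjusted limma p 0.619), and lungs without vector held at most 22.6 TPM. The summed level of all variable segments did not stand apart in this way. It was 888 to 3992 TPM in control lungs and 651 to 8042 TPM with bleomycin alone. With Ad-ATP12A it was 2762, 4022, 3409 and 19127 TPM, so only b2r2 exceeded the lungs without vector. Variable segments are near-identical in part, and the counting of reads that fit several of them is not given in the sources used here, so the level of a single segment is uncertain.

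Xist was unbalanced between the groups in the same direction as the antibody genes. The summed level of the variable segments was 2224, 303, 2265 and 2117 TPM with Ad-GFP and 2762, 4022, 3409 and 19127 TPM with Ad-ATP12A. This level did not follow Xist across a whole group, but it did within a batch where the 2 libraries differed in Xist. The Xist-expressing library held 2224 against 303 TPM in batch 1 of Ad-GFP and 19127 against 3409 TPM in batch 2 of Ad-ATP12A. Whether sex has a part in the antibody differences was not tested. With a term for the Xist-expressing libraries, the median of the segments was 0.54 with 17 higher and 4 lower, that of the B and plasma cell list 0.11 with 1 higher and 1 lower, and the difference of Ighg2c 2.47. Single libraries moved the count of 47 as well. It was 20 without Ad-GFP b1r2, 31 without Ad-GFP b2r2, 25 without Ad-ATP12A b1r2 or b2r2, and 73 without Ad-ATP12A b2r1. For the B and plasma cell list it was 8 without Ad-GFP b1r1, 10 without Ad-ATP12A b2r1, 3 without Ad-GFP b2r1 or Ad-ATP12A b1r1, and 2 without Ad-GFP b1r2, Ad-ATP12A b1r2 or Ad-ATP12A b2r2.

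Among chemokines, Ccl4, which draws T cells, NK cells and monocytes, had the smallest p, although others had larger differences. Ccl4 lay at 1.92, 2.56, 1.67 and 2.59 TPM with Ad-GFP and at 5.84, 3.78, 5.06 and 4.55 TPM with Ad-ATP12A. The groups did not overlap, with means of 2.19 ± 0.46 and 4.81 ± 0.87 TPM (SD, n = 4) and a difference of 0.87 (SE 0.17), close in both batches at 0.83 and 0.91. With bleomycin alone it ranged over both groups, from 1.46 to 5.09 TPM. Of 30 tested inflammatory cytokines and chemokines 4 were higher and none lower, with a median of 0.24. The other 3 were Cxcl1, a neutrophil attractant (1.00 to 4.63 against 3.71 to 5.93 TPM), Cxcl13, a B cell attractant (9.84 to 41.8 against 23.4 to 65.3 TPM), and Osm, the cytokine oncostatin M. The count was 8 without Ad-GFP b2r2 and 1 without Ad-GFP b1r1. It was 2 without Ad-ATP12A b1r2, b2r1 or b2r2, and 6 without Ad-GFP b1r2.

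Interferon genes were higher mainly in batch 1. Of 27 tested type I interferon response genes, 26 were higher in the joint fit and 1 of these had an unadjusted p under 0.05. The median was 0.68 in batch 1, where all 27 were higher, and -0.09 in batch 2, where 10 were. Without Ad-GFP b2r2, 13 of the 27 genes were under 0.05. Without Ad-ATP12A b2r2 there was 1, and without any of the other 6 there were 0. All 22 tested genes for MHC class II and the response to interferon gamma were higher, 2 of them under 0.05, with a median of 0.35 (0.52 in batch 1, 0.17 in batch 2). Without Ad-GFP b2r2 that count was 13 also, 1 without Ad-ATP12A b1r2, and 0 when any of the other 6 was left out. Socs1, a feedback inhibitor of this pathway, did not overlap at 1.30 to 2.18 against 2.31 to 3.32 TPM. Cxcl9 and Cxcl10, ligands of Cxcr3, differed by 1.04 (SE 0.57) and 0.91 (SE 0.49) with overlap.

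Cell cycle genes were higher, more so in batch 2. Of 23 tested, 22 were higher in the joint fit and 6 had an unadjusted p under 0.05, with a median of 0.37, 0.12 in batch 1 and 0.60 in batch 2. Cenpa, the centromeric histone, lay at 19.9, 27.9, 17.6 and 21.2 TPM with Ad-GFP and at 29.3, 25.3, 33.9 and 30.5 TPM with Ad-ATP12A, a difference of 0.45 (SE 0.16). Bub1b, a spindle checkpoint kinase, differed by 0.51, Mcm5, a part of the replicative helicase, by 0.45 and Cdc20, an activator of the anaphase complex, by 0.37. Mki67, the proliferation marker, differed by 0.20 (95% interval -0.14 to 0.54). Knstrn, a kinetochore protein outside the list, did not overlap, at 11.3 to 14.6 against 16.4 to 18.2 TPM, a difference of 0.39 (SE 0.09). In control lungs Cenpa was at most 12.1 TPM, below all 8 vector libraries. The list's count was 21 without Ad-GFP b1r2. It was 0 without Ad-GFP b1r1, Ad-GFP b2r1, Ad-ATP12A b2r1 or Ad-ATP12A b2r2, 1 without Ad-ATP12A b1r1 and 2 without Ad-GFP b2r2.

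Platelet genes were lower. All 10 tested had a negative difference and 5 an unadjusted p under 0.05, against 1.52% of all genes, with a median of -0.52 (-0.59 in batch 1, -0.48 in batch 2). Clec1b, the platelet receptor for podoplanin, lay at 44.1, 21.5, 14.8 and 7.99 TPM with Ad-GFP and at 16.3, 15.02, 4.43 and 5.02 TPM with Ad-ATP12A. Within each batch the groups did not overlap, and the difference was -1.0 (SE 0.25). Gp1ba and Gp9, parts of the receptor for von Willebrand factor, each differed by -0.51, and Itga2b, the platelet integrin, by -0.53. The 5 became 1 without Ad-GFP b1r1 or Ad-ATP12A b1r2, and 0 with all 16 libraries in the fit or with no batch term. Red blood cell genes, a second blood component, had a median of -0.26 in batch 1 and 0.44 in batch 2, with none of 8 under 0.05. Their joint median of 0.13 was -0.11 without Ad-ATP12A b2r1.

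Mitochondrially encoded transcripts and Neat1 were lower. All 15 mitochondrial genes tested had a negative difference, and 7 had an unadjusted p under 0.05, with a median of -0.40. In 14 of them the difference was negative in both batches, mt-Atp8 being higher in batch 1. This group was also formed after values were seen. The small mitochondrial ribosomal RNA mt-Rnr1 lay at 2112, 1625, 941.8 and 727.9 TPM with Ad-GFP and at 1268, 1170, 565.1 and 550.5 TPM with Ad-ATP12A. Here too the groups separated within each batch, with a difference of -0.59 (SE 0.13). The complex I subunit mt-Nd3 differed by -0.70. Mitochondrial genes took 11.5%, 9.81%, 7.50% and 5.92% of all TPM with Ad-GFP and 9.32%, 9.12%, 5.61% and 5.31% with Ad-ATP12A. Neat1, a nuclear RNA that scaffolds paraspeckles, lay at 1481, 1258, 745.3 and 610.1 TPM with Ad-GFP and at 1065, 984.9, 411.0 and 289.5 TPM with Ad-ATP12A, a difference of -0.69 (SE 0.17). The mitochondrial count was 4 without Ad-GFP b1r1, Ad-GFP b2r1, Ad-ATP12A b1r2 or Ad-ATP12A b2r1. The mitochondrial share of a library also reflects RNA quality and extraction, whose part was not tested.

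The fibrosis genes, the readout the bleomycin model is used for, showed no separation, and the batches pointed opposite ways. Of 19 tested collagens, 17 were higher in the joint fit with a median of 0.15, but the median was -0.23 in batch 1, where 2 were higher, and 0.66 in batch 2, where 18 were. Col1a1, the main fibrillar collagen chain, lay at 138.6, 605.3, 204.5 and 748.2 TPM with Ad-GFP and at 241.0, 180.7, 1191 and 669.6 TPM with Ad-ATP12A. Both groups spread more than 4-fold, and the difference was 0.36 (95% interval -1.08 to 1.80), which leaves a change of either direction within its bounds. Col5a2, another fibrillar chain, behaved alike at 0.35 (95% interval -0.80 to 1.49). With Ad-GFP b2r1 left out, the list median was -0.13 and the difference of Col1a1 -0.18. Without Ad-GFP b1r2 the list median was 0.53, and with a term for the Xist-expressing libraries it was 0.55. Col27a1, a collagen of cartilage matrix, was the sole member under 0.05, at 8.33 to 11.7 TPM with Ad-GFP and 6.86 to 8.69 TPM with Ad-ATP12A, a difference of -0.36 (SE 0.11).

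Other matrix and fibroblast lists had the same form. Matrix glycoproteins and crosslinking enzymes had a median of 0.17 over 33 genes (-0.23 in batch 1, 0.47 in batch 2) with none under 0.05. The 17 myofibroblast and contractile genes had a median of 0.13 (-0.20 and 0.43), and Acta2, smooth muscle actin, differed by 0.41 (95% interval -0.34 to 1.16). The 19 genes of the TGF-beta pathway had a median of 0.14 and none under 0.05. In the 22 matrix proteases and inhibitors the median was 0.22 (-0.19 and 0.59), and 1 gene was under 0.05. This was Mmp9, a gelatinase of neutrophils and macrophages, at 1.37, 2.24, 1.98 and 3.15 TPM with Ad-GFP and 1.76, 1.85, 9.55 and 9.06 TPM with Ad-ATP12A. Its difference was 0.02 in batch 1 and 1.55 in batch 2, with an unadjusted interaction p of 0.00335 in limma. Alveolar fibroblast genes had a median of -0.26 (0.08 and -0.62), with Inmt at -0.51 (SE 0.57). Without Ad-GFP b2r1 the medians were -0.06 for matrix glycoproteins and for proteases, -0.03 for the TGF-beta pathway, near 0 for myofibroblast genes and 0.17 for alveolar fibroblast genes, of which 9 of 11 were then higher. Without Ad-GFP b1r2 they were 0.44 for matrix glycoproteins, 0.49 for proteases, 0.23 for the TGF-beta pathway, 0.26 for myofibroblast genes and -0.43 for alveolar fibroblast genes. With a term for the Xist-expressing libraries they were, in the same order, 0.41, 0.36, 0.19, 0.20 and -0.49.

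**Figure D4:**
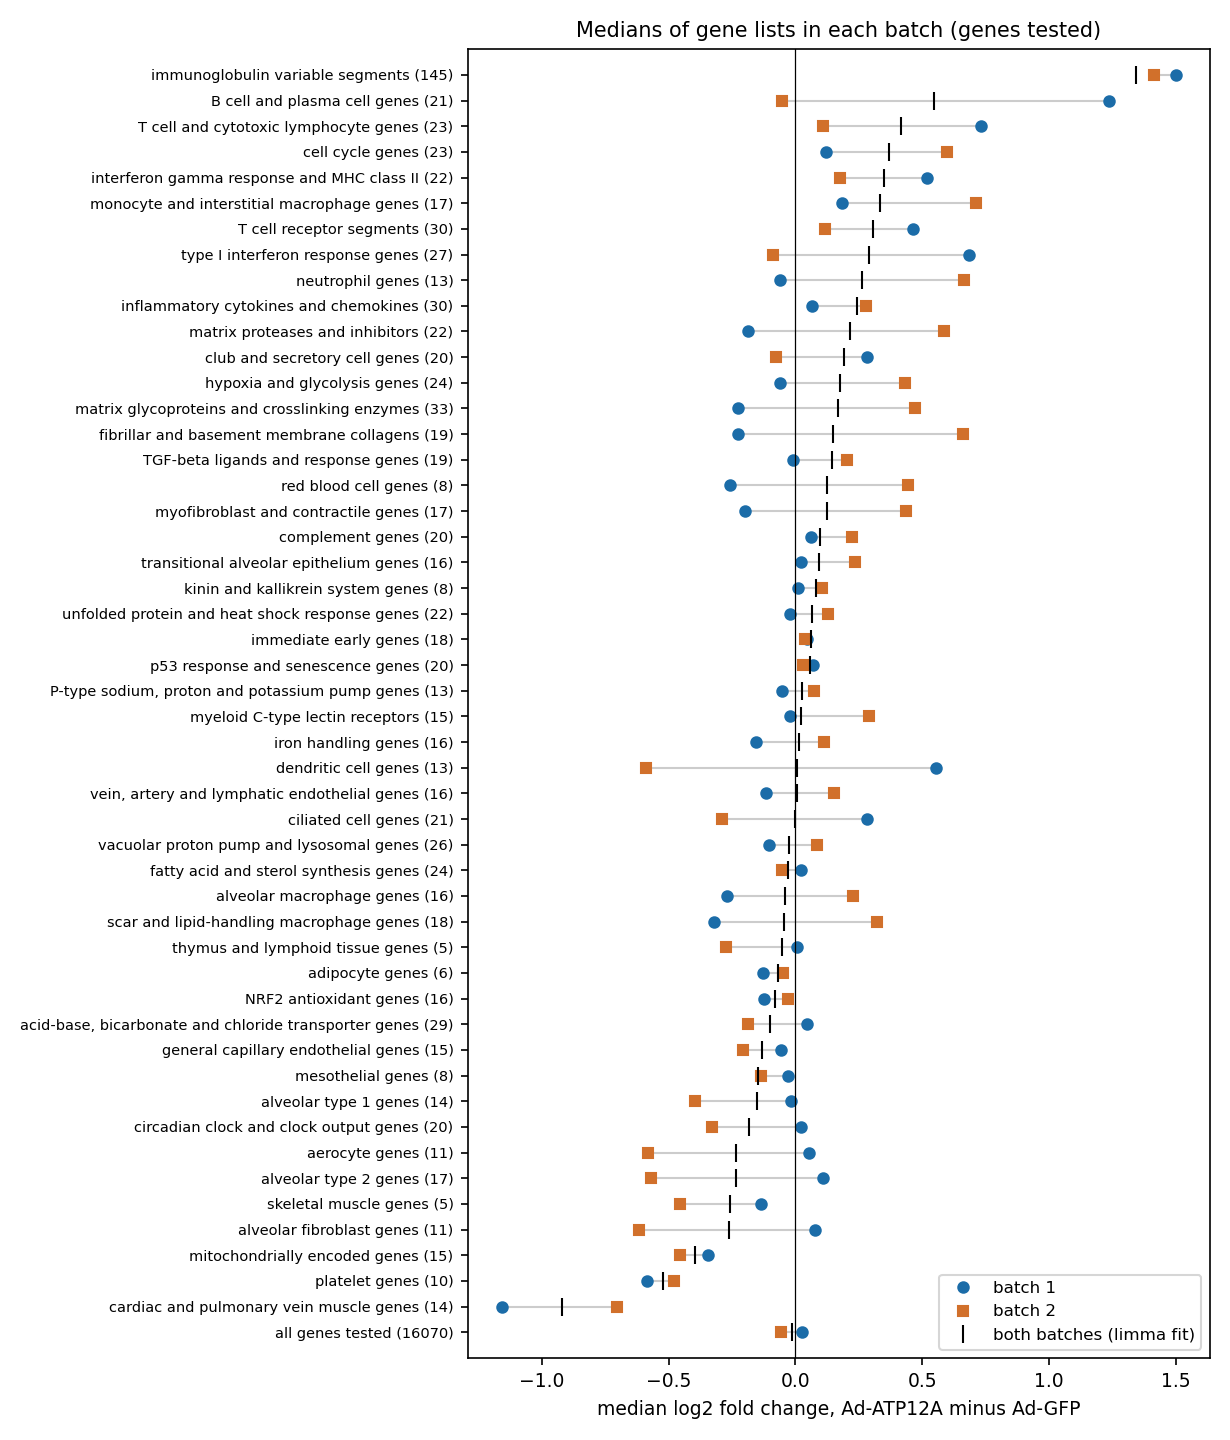
Median log2 difference between Ad-ATP12A and Ad-GFP (horizontal axis) for each gene list with at least 5 tested genes and for all genes, in batch 1 (circles), in batch 2 (squares) and in the joint limma fit (black ticks); the number of genes is in parentheses. Cardiac, platelet and mitochondrial genes lie left of zero and T cell and cell cycle genes right of zero in both batches, while the collagen median is -0.23 in batch 1 and 0.66 in batch 2.

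Epithelial and endothelial lists held few genes at an unadjusted p under 0.05, and no list was tested as a whole. All 17 alveolar type 2 genes had a negative difference in the joint fit, with a median of -0.24, but 13 of them were higher in batch 1 (median 0.11) and none in batch 2 (-0.57). Without Ad-GFP b2r1, 15 of the 17 were higher, with a median of 0.13. Sftpc lay at 29397, 15456, 22804 and 4644 TPM with Ad-GFP and at 15371, 27605, 3965 and 7987 TPM with Ad-ATP12A, with full overlap. The 14 alveolar type 1 genes had a median of -0.15, and Ager differed by -0.20 (95% interval -0.64 to 0.24). All 21 ciliated cell genes were higher in batch 1 (median 0.28) and all lower in batch 2 (-0.29), for a joint median near 0, with none of them under 0.05. Without Ad-GFP b1r2 all 21 were lower (median -0.27), 6 of them under 0.05. Of 20 club and secretory genes 2 were higher under 0.05. These were Scgb3a1, an airway secretoglobin, at 0.56 (SE 0.23), and Reg3g, an antibacterial lectin, at 0.53 (SE 0.22). With a library left out, Scgb3a1 stayed under 0.05 without Ad-GFP b2r2, Ad-ATP12A b1r2 or Ad-ATP12A b2r1, and Reg3g without Ad-GFP b2r2 alone. General capillary genes had a median of -0.13 and aerocyte genes, of the gas-exchange capillaries, -0.23. Without Ad-GFP b2r1 these were 0.01 and 0.06, and the alveolar type 1 median was near 0.

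Myeloid lists differed by batch. Monocyte and interstitial macrophage genes had a median of 0.33 (0.18 and 0.71), which was 0.03 without Ad-GFP b2r1, 0.12 without Ad-ATP12A b2r1 and 0.60 without Ad-GFP b1r2. Ly6c2, which marks classical monocytes, lay at 20.2, 28.8, 24.0 and 47.3 TPM with Ad-GFP and at 30.4, 33.2, 78.5 and 58.3 TPM with Ad-ATP12A. It was the 1 gene of 17 under 0.05, with a difference of 0.68 (SE 0.24). Neutrophil genes had a median of -0.06 in batch 1 and 0.67 in batch 2. S100a9, an abundant neutrophil protein, differed by -0.34 in batch 1 and 1.18 in batch 2, with an unadjusted interaction p of 0.00102. Scar macrophage genes had a median of -0.05 (-0.32 and 0.32) and alveolar macrophage genes -0.04 (-0.27 and 0.23), with none under 0.05 in either.

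Several further genes separated the groups at low or steady levels. Atf7, a transcription factor related to Atf2, had the tightest values, at 43.5, 44.6, 43.0 and 41.3 TPM with Ad-GFP and 32.5, 34.4, 33.3 and 33.6 TPM with Ad-ATP12A. No library crossed the gap, and the difference was -0.36 (SE 0.07). Lungs with bleomycin alone lay at 33.5 to 37.1 TPM and control lungs at 32.9 to 44.7 TPM. Slpi, a secreted inhibitor of leukocyte proteases, lay at 63.4 to 95.2 TPM with Ad-GFP and at 102.8 to 294.0 TPM with Ad-ATP12A, a difference of 0.89 (SE 0.29). The highest value was that of b2r2, the library also highest in antibody transcripts. Egr3, an immediate early transcription factor, had 2.41 to 3.72 against 3.82 to 5.42 TPM. The 18 tested immediate early genes did not move together, with 10 higher, 8 lower, a median of 0.06 and 1 under 0.05.

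Among the non-overlapping genes with the largest negative differences were long noncoding RNAs. Rap1gapos lay at 1.63 to 2.59 against 0.20 to 1.29 TPM (-0.78), Lncppara at 3.36 to 5.50 against 2.14 to 3.02 TPM (-0.63) and Tbx3os1 at 5.61 to 10.3 against 1.36 to 5.14 TPM (-0.98). As the strand setting of the counting is not given, reads of such antisense or neighbouring genes cannot be told apart from those of their partners. Coding genes of the same rule included the zinc finger genes Zscan18 (-0.62) and Zfp846 (-0.41), and Pkhd1l1 (-0.57). Ppig (-0.46) and Ccdc88a (-0.40) were also among them. On the higher side the rule gave Oosp1 (1.14) and Xlr3a (0.82), both at 4.03 TPM or less throughout. Oosp1 was at most 0.82 TPM with Ad-GFP and passed the filter only through the Ad-ATP12A libraries, which fixed its lack of overlap. Hist1h4m, a histone H4 gene with near-identical copies, was listed at 0 in 3 Ad-GFP libraries and 11.5 TPM in b1r2, against 5.20 to 22.0 TPM with Ad-ATP12A. Thoc3, of the mRNA export complex, differed by 0.30 (SE 0.08). Of the 118 genes without overlap (0.734%), the mean with bleomycin alone was nearer the Ad-ATP12A mean in 58 and nearer the Ad-GFP mean in 60, against 7336 and 8734 of all genes tested. The control mean was nearer the Ad-ATP12A mean in 46 and nearer the Ad-GFP mean in 72, against 5751 and 10319.

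Injury genes were then taken from the 8 libraries that hold no vector. In those, limma called 2182 genes that rose with bleomycin (13.5% of 16110) and 1163 that fell (7.22%). Of the risen genes 2177 were tested here, and their median difference between the vector groups was 0.09 (-0.03 in batch 1, 0.20 in batch 2) against a median change of 0.73 under bleomycin itself. Of the fallen genes 1089 were tested, with a median of -0.13 (0.04 in batch 1, -0.32 in batch 2) against -0.72. The 0.73 and -0.72 come from the libraries that chose these genes, a choice that favours large changes. The median level of the risen genes, in log2(TPM + 1), was 4.35, 4.79, 4.46 and 4.93 with Ad-GFP and 4.66, 4.53, 4.90 and 4.87 with Ad-ATP12A, and the groups overlapped. Control lungs lay at 3.80 to 3.96, below every vector library, and lungs with bleomycin alone at 4.50 to 4.94. The fallen genes lay at 4.01, 3.52, 4.34 and 3.80 with Ad-GFP and at 3.61, 3.98, 3.66 and 3.74 with Ad-ATP12A, against 4.51 to 4.79 in control lungs and 3.62 to 4.24 with bleomycin alone. Again the vector groups overlapped. The 2 Ad-GFP libraries of a batch, at 4.35 and 4.79 and at 4.46 and 4.93, lay farther apart in the risen genes than the 0.09 between the vector groups. Both median differences changed sign without Ad-GFP b2r1, to -0.013 for the risen and 0.017 for the fallen genes. That of the risen genes was 0.19 without Ad-GFP b1r2, 0.14 without Ad-GFP b2r2 and 0.036 without Ad-GFP b1r1. That of the fallen genes was -0.25 without Ad-GFP b1r2, -0.21 without Ad-GFP b2r2, -0.26 without Ad-ATP12A b1r2 and -0.09 without Ad-ATP12A b1r1 or b2r1.

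**Figure D5:**
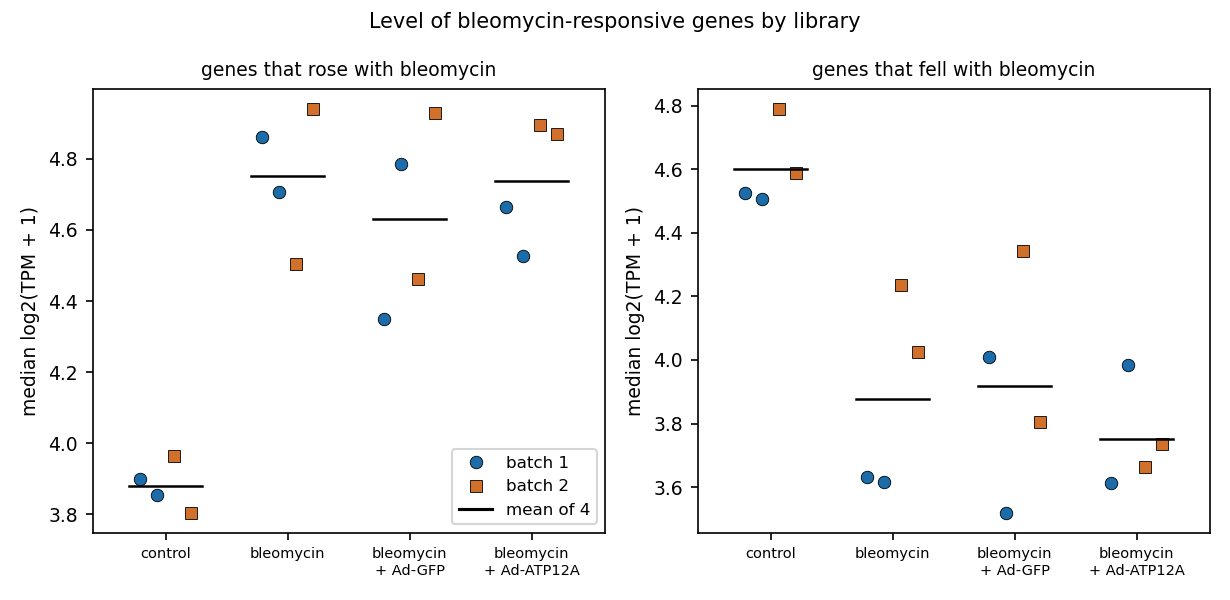
Median log2(TPM + 1) (vertical axes) per library of the genes that rose (left) and fell (right) with bleomycin in the libraries without vector; circles are batch 1, squares batch 2, lines are means of 4, and the control and bleomycin groups chose the genes. The vector groups overlap, at 4.35 to 4.93 and 4.53 to 4.90 on the left and 3.52 to 4.34 and 3.61 to 3.98 on the right, and no vector library reaches the control range, although Ad-GFP b2r1 at 4.34 on the right lies above all libraries with bleomycin alone.

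One gene differed between the batches after adjustment. Gm35558, a long noncoding RNA model outside the naming rule, was listed at 0 in both batch 1 libraries and at 5.14 and 6.17 TPM in both batch 2 libraries with Ad-GFP. With Ad-ATP12A it was at 3.41 and 2.58 TPM in batch 1 and listed at 0 in both batch 2 libraries. The effect in batch 2 minus that in batch 1 was -4.72 (SE 0.30), with an adjusted p of 0.0269 in limma, 1 gene of 16070 (0.00622%). Gm35558 passed the filter only through the 4 libraries that held it, so its pattern was in part fixed by the filter. No gene was called when any single library was left out. At an unadjusted p under 0.05 the batches differed in 599 genes (3.73%).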

How the data were processed

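Per the submitters' processing notes, reads were processed with STAR and RSEM and the mouse build GRCm39 (mm39), with no versions or strand setting given. The authors deposited 1 table of log2 values for 16 libraries and 53647 identifiers; from the values these are log2(TPM + 1). The depth is unknown, since TPM carry no counts, and models for counts were not applied. Of the identifiers, 52093 matched a symbol (GENCODE annotation of an earlier build, so no coordinates are given) and 1554 did not. No column was left unmapped.

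Groups, batches and replicates came from the sample titles. Genes with at least 1 TPM in at least 4 of the 8 libraries were tested with limma 3.58.1 (R 4.3.3, statmod 1.5.0) on log2(TPM + 1), with a trended prior variance and a batch term. Tests were two-sided, and p-values adjusted by Benjamini-Hochberg were read at a threshold of 0.05. SE and 95% intervals are those of the moderated fit. The difference between batches was an interaction term. Values within a batch are differences of means without a test. Counts given for a batch alone are the exception, from limma fits to 2 libraries per group. For the injury genes, limma was fitted in the same way to the 8 libraries without vector. The scripts were tested on simulated data. Plots used matplotlib 3.10.9 under Python 3.11.15.

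The comparison and the 50 gene lists were chosen with earlier results of these data known. Named genes were Atp12a, the 20 genes with the smallest p, the 10 non-overlapping genes with the largest difference in each direction, up to 4 members with the smallest p or the best known markers of each list, and Xist, Y-linked genes and Scgb1a1 as checks. Predicted models, pseudogenes, identifiers without a symbol and immunoglobulin or T cell receptor segments were passed over in naming but counted. Same-numbered libraries of the groups did not deviate together, with correlations of -0.122 in batch 1 and -0.169 in batch 2, so the numbers were not taken as pairs. Alternatives changed the pseudocount, the filter, the scaling, the libraries in the fit, the batch term, the weights and the replicates.

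Results on a few genes are not reported here.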

Additional observations from a re-analysis of the deposited data

Results flagged for a closer look

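In 15 of 160 gene and group pairs, 1 of 4 libraries stood apart from the other 3 by Dixon's test, which compares the gap to the nearest library with the group's range on the log scale. Chance flags about 1 in 20 groups, and the genes were partly chosen for their separation. In the Ad-GFP group, b1r1 held Scgb1a1 at 295.36 TPM against 24870 to 33343, Xist at 167.38 TPM against 0.08 to 0.38, Ddx3y, a Y-linked gene, at 0 TPM against 28.1 to 49.4, and Oosp1 at 0.82 TPM against 0 to 0.09. Ad-GFP b1r2 held Igkv4-72 at 1.53 TPM against 14.3 to 21.2 and Hist1h4m at 11.52 TPM where the others were listed at 0. Ad-GFP b2r2 held Fxyd1 at 48.26 TPM against 82.0 to 85.7.

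In the Ad-ATP12A group, b2r1 held Xist at 0.07 TPM against 74.4 to 157.0, Ddx3y at 42.88 TPM against 0 to 0.03, and Cxcl9 at 57.76 TPM against 19.8 to 22.2. Ad-ATP12A b2r2 held Igkv4-72 at 245.36 TPM against 113.9 to 122.5, Slc4a3 at 5.13 TPM against 6.58 to 6.84, Ppig at 27.26 TPM against 57.5 to 64.0 and Ccdc88a at 6.74 TPM against 12.2 to 12.7. Ad-ATP12A b1r2 held Pkhd1l1 at 2.74 TPM against 3.23 to 3.30.

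Gm35558 was the gene whose difference between the vector groups changed most between the batches, by -4.72 on the log2 scale, with opposite signs in batch 1 (1.99) and batch 2 (-2.73). Lungs without vector held it at 0 to 6.91 TPM.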

How the results depend on the processing

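The count of genes with an adjusted p under 0.05, 0 in the fit reported above, stayed at 0 with a mean of 5 TPM as the filter, quantile or median-ratio scaling, no batch term, a robust prior, an Xist term or either batch alone. It was 1 with a pseudocount of 0.1 (Atp12a, 6.50) and 1 with all 16 libraries (Atp12a, 3.54), 2 with no filter (AC119957.1 and Gm45712) and 2 with array weights (AC119957.1 and Ighv1-81). With 1 library left out it ran from 0 to 2, the 2 being Gm15899 and Ighv1-81 without Ad-GFP b2r2. The replicate block, with same-numbered libraries as pairs, called 1 gene (Igkv1-117) and 374 at an unadjusted p under 0.05. At an unadjusted p under 0.05 the counts of 230 higher and 244 lower genes became 447 and 664 with no filter, 115 and 76 with no batch term, and 1045 and 1164 with array weights. The lower count was 86 in batch 1 alone and 590 in batch 2 alone. With 1 library left out, the higher count ran from 139 (without Ad-ATP12A b2r2) to 541 (without Ad-GFP b1r2) and the lower count from 133 to 888 (the same libraries). Genes whose difference changed between batches, 1 as reported, numbered 3 with no filter, 0 with a mean of 5 TPM and 0 to 0 with any 1 library left out. Genes without overlap numbered 90 to 327 higher and 117 to 277 lower with 7 libraries, where fewer values have to separate by construction. The medians of the injury genes (0.09 and -0.13) stayed within the spread between libraries, but ran from -0.013 to 0.19 and from -0.26 to 0.017 with 1 library left out, changing sign without Ad-GFP b2r1 and in batch 1 alone (-0.026 and 0.041).

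Signs turned in 8 named genes. In batch 1 alone, Col1a1 was at -0.47, Col5a2 at -0.22, Acta2 at -0.25, Inmt at 0.043 and S100a9 at -0.34, and in batch 2 alone Scgb1a1 was at -0.021. With an Xist term Xist itself was at -0.21. With 1 library left out, Col1a1 ran from -0.18 to 0.95, Col5a2 from -0.10 to 0.82, Sftpc from -0.84 to 0.081 and Inmt from -0.98 to 0.0040, the sign turning without Ad-GFP b2r1 in all 4. For these changes the cause was not tested. No setting moved the median of all genes by more than 0.1.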

Other observations

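Stress, metabolic and repair genes showed few differences. Of 24 hypoxia and glycolysis genes 1 was higher at an unadjusted p under 0.05, with a median of 0.18 that was -0.06 in batch 1 and 0.43 in batch 2, and -0.011 over both without Ad-GFP b2r1. The p53 and senescence list (median 0.06), NRF2 antioxidant genes (-0.08), the unfolded protein response (0.06), fatty acid and sterol synthesis (-0.03), complement (0.10) and the kinin system (0.08) had no gene under 0.05. Circadian clock genes had a median of -0.18, 0.02 in batch 1 and -0.33 in batch 2, with none of 20 under 0.05. Without Ad-GFP b1r2, 6 of the 20 were lower under 0.05. Dendritic cell genes had opposite medians in the batches, 0.56 and -0.59, for a joint median of 0.01. Transitional alveolar epithelium genes, which mark repair, had a median of 0.09. Mesothelial genes (median -0.15 over 8), myeloid C-type lectin receptors (0.02 over 15) and genes of veins, arteries and lymphatics (0.005 over 16) had none under 0.05. For mast cell, basal cell, hepatocyte, skeletal muscle, adipocyte and lymphoid tissue lists at most 6 genes each could be tested.

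Across 15681 genes, the difference between the vector groups had a Pearson correlation of 0.232 with the difference between bleomycin and control in the 8 other libraries, -0.0808 in batch 1 and 0.369 in batch 2. This is a description across genes, which are not independent replicates. The smallest p belonged to AC119957.1, a processed pseudogene outside the naming rule, listed at 0 in all 4 Ad-GFP libraries and at 1.92, 1.46, 1.48 and 1.30 TPM with Ad-ATP12A. It was also present in 1 control library (0.98 TPM) and 1 library with bleomycin alone (1.36 TPM), both b1r1. It passed the filter only because all 4 Ad-ATP12A libraries reached 1 TPM, so its separation was fixed by the filter. Its adjusted p in limma was 0.297, and the share of its reads that belong to its parent gene is not known here.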
